A study of Caenorhabditis elegans with 14 samples.

Results

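The fatty acid desaturase genes *fat-1* to *fat-7* of *C. elegans* were followed in RNA sequencing of whole animals. The members were taken by symbol from the deposited expression matrix, in which 7 of 41560 gene symbols carry these names, and the FPKM (fragments counted per kb of transcript and scaled to the mapped reads of the library) of all transcript entries of a gene were added up. The strains compared were as follows. The *mir-60* mutants were double mutants *mir-60*(*n4947*);*spe-9*(*hc88*), which lack the miRNA gene *mir-60*, and the controls were *spe-9*(*hc88*) single mutants, so that all animals carried the temperature-sensitive sterility allele of *spe-9*. Animals were grown from eggs on *E. coli* OP50 at 23.5 °C, and after 68 hours, at the young adult stage called Day 0, untreated animals of both strains were collected. The other animals were then moved to plates with 5 mM paraquat, which generates superoxide, and 325 µM 5-fluorodeoxyuridine (FUDR), which stops the growth of progeny. They were collected at Day 7 in both strains and at Day 10 in *mir-60* mutants, days that the study chose by survival under paraquat. In its assay the median survival time was close to Day 7 in *spe-9* controls and close to Day 10 in *mir-60* mutants. There were 2 independently purified libraries of *mir-60* mutants and 2 of *spe-9* controls at Day 0, and 1 library in each of the 3 later groups. Age, paraquat and FUDR change together between Day 0 and the later days and cannot be told apart, and each later group is 1 library.

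Fatty acid desaturases insert double bonds into fatty acyl chains, using electrons passed on by cytochrome b5 and its reductase. The worm can make all of its polyunsaturated fatty acids. FAT-5, FAT-6 and FAT-7 are delta-9 desaturases that take the first step, FAT-5 acting mainly on palmitic acid and FAT-6 and FAT-7 on stearic acid to give oleic acid. FAT-2 is the delta-12 desaturase that turns oleic into linoleic acid, FAT-1 is the omega-3 desaturase, and FAT-3 and FAT-4 are the delta-6 and delta-5 desaturases that lead to arachidonic and eicosapentaenoic acid. The intestine, the main fat-storing tissue of the worm, is a major site of this pathway.

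Coordinates of the members are those of build WS220. 5 of the 7 genes lie on chromosome IV. *fat-4* (IV, 9799451 to 9802052) and *fat-3* (IV, 9803043 to 9805979) are neighbours with a gap of 990 bases between their annotated entries. *fat-1* (IV, 13315622 to 13318582) and *fat-2* (IV, 13323856 to 13326254) are neighbours with a gap of 5273 bases. No other entry of the matrix lies in either gap. *fat-6* lies elsewhere on the chromosome (IV, 11913796 to 11915645), and *fat-7* (V, 7151428 to 7153112) and *fat-5* (V, 17724979 to 17726691) are on chromosome V. The longest entries of the 7 genes were between 1002 and 1344 bases, and the lengths of 97.8% of the mRNA entries were multiples of 3, so these are coding lengths without UTRs. *fat-1*, *fat-5* and *fat-7* have 1 entry each, *fat-2* has 2, *fat-6* and *fat-4* have 3 and *fat-3* has 4.

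All 7 members passed the filter of a mean of at least 1 FPKM. The 7 libraries each had between 12183 and 13294 genes at 1 FPKM or more. The hairpin gene *mir-60* was listed at 0 FPKM in all 7 libraries, controls included. The libraries were made from polyadenylated RNA, and the gene gives no check of the strain labels. Of the genes used by the study as references for qRT-PCR, *ama-1*, a subunit of RNA polymerase II, was between 67.4 and 77.5 FPKM in 6 libraries but was listed at 0 in *mir-60* mutants at Day 7, which can be a failed estimate. *cdc-42*, a small GTPase, was between 228 and 343 FPKM, and *pmp-3*, a peroxisomal ABC transporter, was between 25.2 and 58.8 FPKM, both lowest at Day 10.

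**Figure D1:**
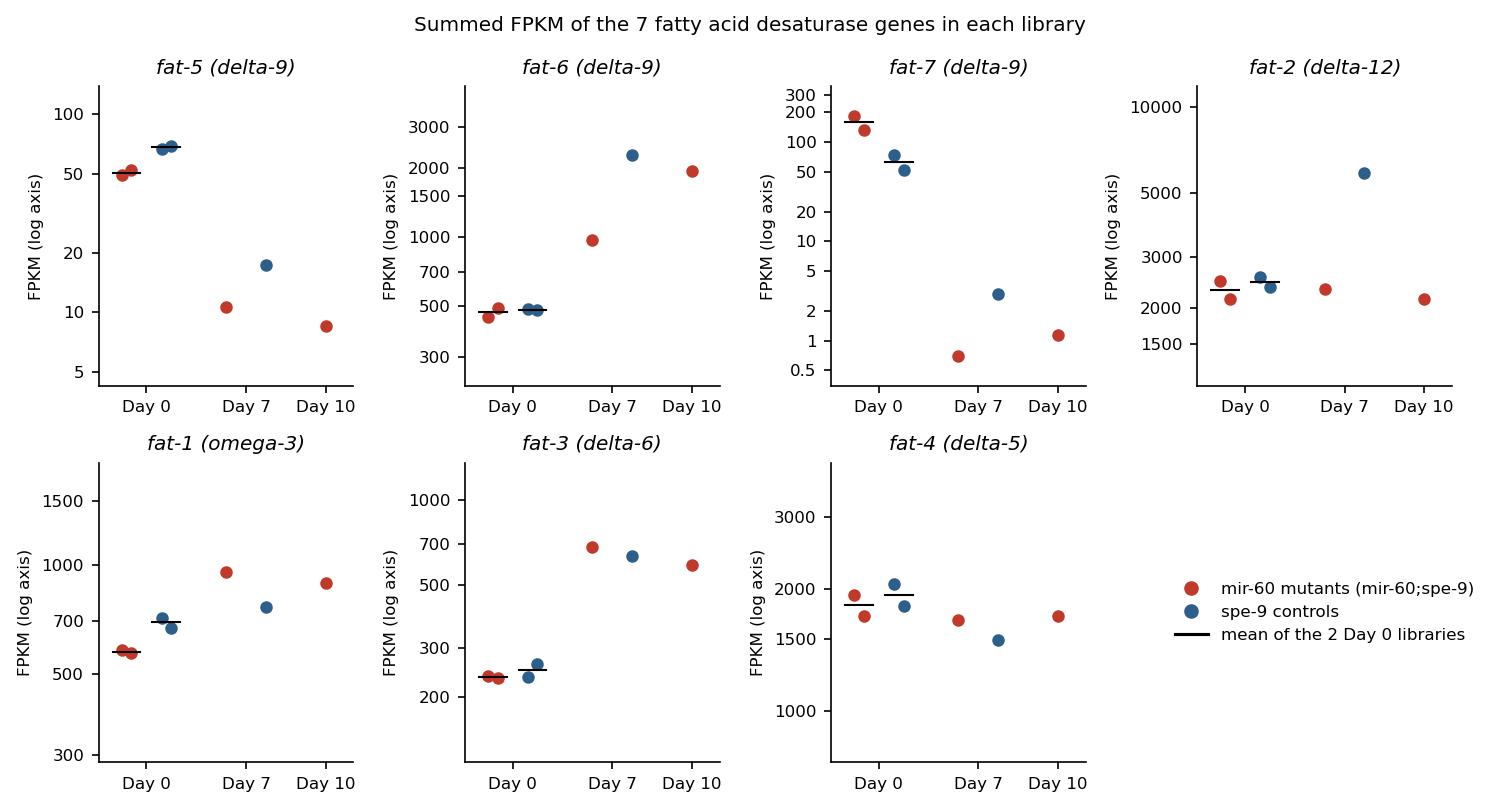
Summed FPKM (log axis, scaled for each gene) of the 7 desaturase genes in the 7 libraries by day, with *mir-60* mutants in red to the left of *spe-9* controls in blue and a black line at the mean of 2 Day 0 libraries. *fat-7* stood between 52.8 and 184 FPKM at Day 0 and at 2.98 FPKM or less later, whereas *fat-6* and *fat-3* stood higher in each later library than in any Day 0 library.

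The order of levels was read per length, with FPKM multiplied by entry length, added up and divided by the longest entry of the gene, because short entries carry very high FPKM. The 168-base entry of *fat-4*, for example, stood at 1343 to 1837 FPKM and its 1344-base entry at 148 to 213 FPKM. On this length-weighted scale *fat-2* was highest at Day 0, at 1175 ± 109 in *mir-60* mutants and 1247 ± 81.7 in *spe-9* controls (SD, n = 2 each). *fat-1* came next, at 578 ± 7.47 in *mir-60* mutants and 695 ± 30.9 in *spe-9* controls (SD, n = 2 each). *fat-6* (387 to 420 over the 4 Day 0 libraries) and *fat-4* (375 to 442) overlapped and could not be ordered. *fat-3* (124 to 134) and *fat-7* (52.8 to 184) also overlapped, and *fat-5* was lowest in *mir-60* mutants (49.4 and 51.9) but within the spread of *fat-7* in *spe-9* controls (66.7 and 69.2, against 74.8 and 52.8 for *fat-7*).

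The strains were first compared at Day 0, before any treatment. Of the delta-9 desaturases, *fat-7* had 184 and 132 FPKM in *mir-60* mutants, against 74.8 and 52.8 FPKM in *spe-9* controls. Both mutant libraries thus lay above both control libraries, and in each strain the library numbered 1 was the higher of the pair. From the steps in which low FPKM values of single-entry genes of this length are spaced, 88.9% to 100% of them whole within 5%, these levels correspond to 7321 and 5593 reads in *mir-60* mutants and to 3447 and 2303 reads in *spe-9* controls. The difference was 1.30 on the log2 scale (SE 0.25, 2.47-fold higher), the adjusted p of limma was 0.146 over 13068 genes, and *fat-7* was therefore not called. The 95% interval of the log2 difference ran from 0.61 to 2.00 before adjustment. Between same-numbered libraries the log2 difference was 1.29 and 1.31, and when a block for replicate number was added *fat-7* was the 1 member called (limma, adjusted p = 0.0304), beside 2.71% of all genes. Whether the numbers pair the strains is not stated outright.

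At Day 0 *fat-5* had 49.4 and 51.9 FPKM in *mir-60* mutants, against 66.7 and 69.2 FPKM in *spe-9* controls. The mutant libraries lay below the control libraries, by 0.42 on average on the log2 scale, and the difference did not pass the test (limma, adjusted p = 0.111). *fat-6* had 450 and 489 FPKM in *mir-60* mutants, against 484 and 481 FPKM in *spe-9* controls, and the strains overlapped. Its fitted log2 difference was -0.04, with a 95% interval from -0.23 to 0.15. Thus *fat-6* made up 71.0% and 78.8% of the *fat-6* and *fat-7* FPKM in *mir-60* mutants, against 86.6% and 90.1% in *spe-9* controls, while the 3 delta-9 genes together stood at 684 and 673 FPKM in *mir-60* mutants, against 626 and 603 FPKM in *spe-9* controls.

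Of the desaturases that act on polyunsaturated fatty acids or make linoleic acid, *fat-1* had 583 and 573 FPKM in *mir-60* mutants, against 717 and 673 FPKM in *spe-9* controls at Day 0. The strains did not overlap, and the log2 difference of -0.27 did not pass the test (limma, adjusted p = 0.205). *fat-2* had 2478 and 2147 FPKM in *mir-60* mutants, against 2559 and 2359 FPKM in *spe-9* controls. *fat-3* had 237 and 234 FPKM in *mir-60* mutants, against 236 and 262 FPKM in *spe-9* controls, and *fat-4* had 1926 and 1716 FPKM in *mir-60* mutants, against 2050 and 1817 FPKM in *spe-9* controls. In *fat-2*, *fat-3* and *fat-4* the libraries of the strains overlapped, with fitted log2 differences between -0.09 and -0.08.

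By limma, 0 of the 7 members were called between the strains at Day 0 at an adjusted p under 0.05, beside 0.742% of the 13068 genes tested. At an unadjusted p under 0.05 there were 3 members, *fat-1*, *fat-5* and *fat-7*, beside 15% of all genes. The strains did not overlap for 1 member with *mir-60* mutants higher (*fat-7*) and 2 with *mir-60* mutants lower (*fat-1* and *fat-5*), beside 27.1% and 24.5% of all genes. The median log2 difference was -0.09 over the members and 0.01 over all genes.

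Marker genes of several tissues differed between the strains at Day 0, though none of those tested was called (limma, adjusted p under 0.05). Over all genes tested, 27.1% had both *mir-60* mutant libraries above both control libraries, and the marker counts stand beside this share. Of the intestine markers, 6 of 7 in the matrix were higher in both *mir-60* mutant libraries than in both control libraries, with sums of 1421 and 1236 FPKM in *mir-60* mutants, against 1097 and 1004 FPKM in *spe-9* controls, most of it from *asp-1* (705 to 1064 FPKM). The same held for 4 of 5 body wall muscle markers, with sums of 855 and 827 FPKM in *mir-60* mutants against 629 and 635 FPKM in *spe-9* controls. Neuron markers followed in 5 of 5, with sums of 940 and 945 FPKM in *mir-60* mutants against 895 and 916 FPKM in *spe-9* controls. Most of the neuron sum came from *snb-1*, at 851 to 890 FPKM. Hypodermis markers followed in 3 of 6, of which *rol-6* stood at 0.267 FPKM or less and was not tested. It held for 0 of 7 germline and oocyte markers, whose sums were 1407 and 1652 FPKM in *mir-60* mutants and 1543 and 1827 FPKM in *spe-9* controls. The hypodermis sum was 169 and 72.6 FPKM in *mir-60* mutants, against 73.0 and 40.1 FPKM in *spe-9* controls, so that it was higher in the library numbered 1 of each strain, as *fat-7* was. In whole animals fewer cells of a type and less RNA per cell cannot be told apart, and the part of these shifts in the values of *fat-7*, *fat-5* and *fat-1* was not tested.

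**Figure D2:**
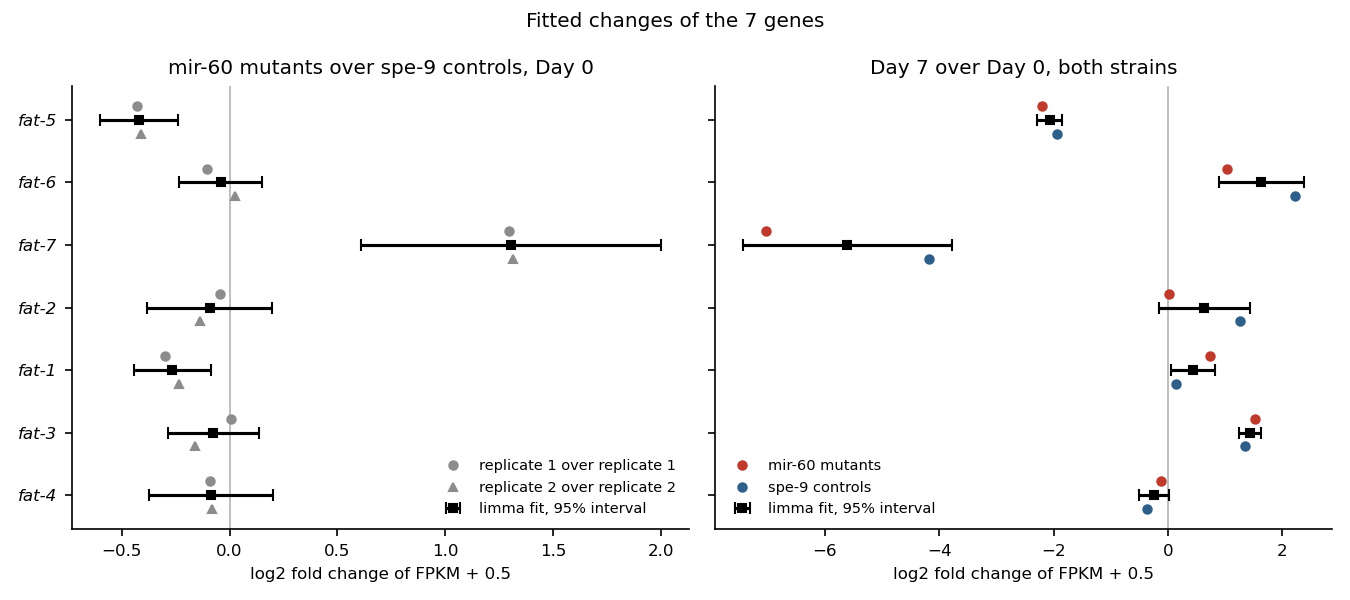
Log2 fold changes of FPKM + 0.5 for the 7 genes, *mir-60* mutants over *spe-9* controls at Day 0 (left) and Day 7 over Day 0 with strain as a term (right), with squares and bars for the limma estimate and its unadjusted 95% interval. Grey points at left are the same-numbered replicates and coloured points at right the strains, and the *fat-7* points of the strains lie at -7.03 and -4.18 at right.

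Between Day 0 and Day 7 the delta-9 desaturases parted. *fat-6* and the delta-6 desaturase *fat-3* rose, by 3.10-fold and 2.71-fold, while *fat-5* fell 4.19-fold and *fat-7* fell 48.7-fold. *fat-1*, *fat-2* and *fat-4* did not pass the test. Of the 7 members 2 were called higher and 2 lower at an adjusted p under 0.05, beside 33.2% of all 13639 genes tested called higher and 27.5% called lower. The share of members called was thus close to that of all genes, 60.6% of which were called in either direction.

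*fat-7* had 0.699 FPKM in *mir-60* mutants and 2.98 FPKM in *spe-9* controls at Day 7, against 184 and 132 FPKM in *mir-60* mutants and 74.8 and 52.8 FPKM in *spe-9* controls at Day 0. Both Day 7 libraries lay far below all Day 0 libraries. The Day 7 values correspond to 35 reads in *mir-60* mutants, with a 95% Poisson interval of 0.487 to 0.972 FPKM, and to 134 reads in *spe-9* controls, with an interval of 2.50 to 3.53 FPKM. Such intervals cover counting error only. The fitted log2 change was -5.61 (SE 0.69, limma adjusted p = 0.00270). It rests unevenly on the strains: the log2 change was -7.03 in *mir-60* mutants and -4.18 in *spe-9* controls. These are also the values obtained without the other strain's Day 7 library, and each rests on 1 Day 7 library.

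*fat-6* had 965 FPKM in *mir-60* mutants and 2261 FPKM in *spe-9* controls at Day 7, against 450 and 489 FPKM in *mir-60* mutants and 484 and 481 FPKM in *spe-9* controls at Day 0. Both Day 7 libraries lay above all Day 0 libraries. The fitted log2 change was 1.63 (SE 0.28, limma adjusted p = 0.00738). Without the Day 7 library of *spe-9* controls it was 1.04, and without that of *mir-60* mutants it was 2.23, each resting on 1 Day 7 library. The full-length 1020-base entry of *fat-6* behaved as the sum did, with 617 FPKM in *mir-60* mutants and 1411 FPKM in *spe-9* controls at Day 7, against 254 to 287 FPKM at Day 0.

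*fat-5* had 10.7 FPKM in *mir-60* mutants and 17.4 FPKM in *spe-9* controls at Day 7, against 49.4 and 51.9 FPKM in *mir-60* mutants and 66.7 and 69.2 FPKM in *spe-9* controls at Day 0. Both Day 7 libraries lay below all Day 0 libraries. The fitted log2 change was -2.07 (SE 0.08, limma adjusted p = 0.000225), and it was -2.20 in *mir-60* mutants and -1.94 in *spe-9* controls. The counts behind the later values, 524 reads in *mir-60* mutants and 765 reads in *spe-9* controls, were larger than those of *fat-7*.

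The makeup of the delta-9 pool shifted with these changes. Per length, *fat-6* made up 98.7% of the 3 genes in *mir-60* mutants and 99.0% in *spe-9* controls at Day 7, against 62.3% and 69.5% in *mir-60* mutants and 74.8% and 77.3% in *spe-9* controls at Day 0. The pool itself was larger, at 863 in *mir-60* mutants and 2006 in *spe-9* controls at Day 7, against 538 to 620 length-weighted FPKM at Day 0. Of *fat-6* plus *fat-7* alone, *fat-6* made up 99.9% on average at Day 7 and 81.6% at Day 0. This difference of 18.3 percentage points had an exact two-sided permutation p of 0.133 (n = 2 and n = 4), the smallest that this number of libraries allows. *fat-6* and *fat-7* are related genes, and any reads that both could have produced may be split between them by the quantification. Per length, *fat-7* stood at 0.0820% of the *fat-6* level in *mir-60* mutants and 0.150% in *spe-9* controls at Day 7. The part of such a split in the levels was not tested in either direction.

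**Figure D3:**
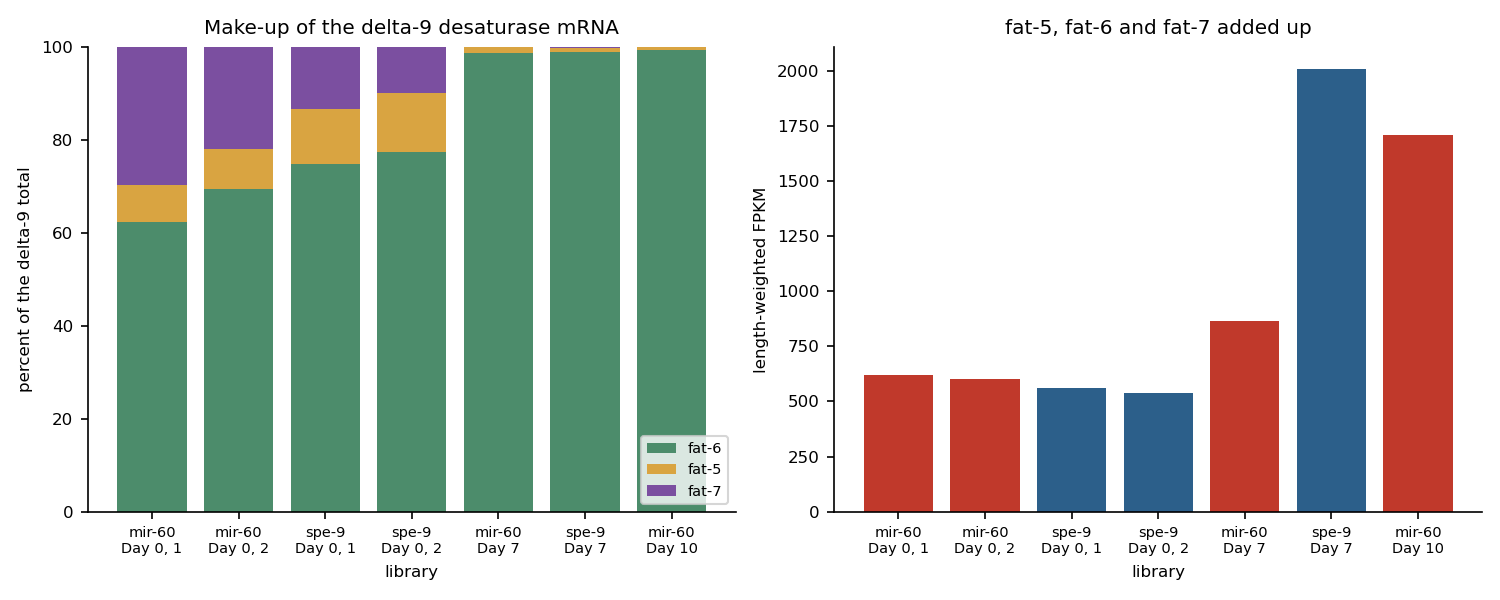
Share of *fat-6*, *fat-5* and *fat-7* in the length-weighted FPKM of the 3 delta-9 desaturase genes (left, percent) and their total (right, FPKM) in each of the 7 libraries. *fat-7* made up 9.82% to 29.7% of the pool at Day 0 and no more than 0.149% in the later libraries, while the total was 538 to 620 at Day 0 and 863 to 2006 later.

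Among the desaturases of polyunsaturated fatty acids, *fat-3* had 681 FPKM in *mir-60* mutants and 636 FPKM in *spe-9* controls at Day 7, against 237 and 234 FPKM in *mir-60* mutants and 236 and 262 FPKM in *spe-9* controls at Day 0. The log2 rise was 1.44 (SE 0.07, limma adjusted p = 0.000346), with 1.53 in *mir-60* mutants and 1.35 in *spe-9* controls. Its neighbour *fat-4* had 1679 FPKM in *mir-60* mutants and 1491 FPKM in *spe-9* controls at Day 7, against 1926 and 1716 FPKM in *mir-60* mutants and 2050 and 1817 FPKM in *spe-9* controls at Day 0. Both Day 7 libraries lay below all Day 0 libraries, with a log2 difference of -0.24 that did not pass the test (limma, adjusted p = 0.0972). Per length, *fat-3* stood at 106% of *fat-4* in *mir-60* mutants and 107% in *spe-9* controls at Day 7, against 29.5% to 34.8% in the 4 Day 0 libraries.

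*fat-1* had 958 FPKM in *mir-60* mutants and 765 FPKM in *spe-9* controls at Day 7, against 583 and 573 FPKM in *mir-60* mutants and 717 and 673 FPKM in *spe-9* controls at Day 0. Both Day 7 libraries lay above all Day 0 libraries, and the log2 difference of 0.43 narrowly missed the threshold (limma, adjusted p = 0.0557). It was 0.73 in *mir-60* mutants and 0.14 in *spe-9* controls, each resting on 1 Day 7 library.

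*fat-2* had 2328 FPKM in *mir-60* mutants and 5889 FPKM in *spe-9* controls at Day 7, against 2478 and 2147 FPKM in *mir-60* mutants and 2559 and 2359 FPKM in *spe-9* controls at Day 0. Only the control library stood above the Day 0 libraries. The fitted log2 difference of 0.64 (SE 0.30, limma adjusted p = 0.130) joins a change of 0.01 in *mir-60* mutants with one of 1.26 in *spe-9* controls. Each of these changes rests on 1 Day 7 library. Both entries of *fat-2* showed the same, the 1131-base entry with 760 FPKM in *mir-60* mutants and 1883 FPKM in *spe-9* controls and the 270-base entry with 1568 FPKM in *mir-60* mutants and 4006 FPKM in *spe-9* controls.

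Counting positions rather than tests, 3 members (*fat-1*, *fat-3* and *fat-6*) had both Day 7 libraries above all Day 0 libraries and 3 (*fat-4*, *fat-5* and *fat-7*) had both below, beside 36.4% and 31.3% of all genes. The median log2 change was 0.43 over the members and 0.06 over all genes tested.

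Tissue markers also moved between the days. Both Day 7 libraries lay below all Day 0 libraries for 4 of 7 intestine markers, 4 of 5 body wall muscle markers, 4 of 6 hypodermis markers and 6 of 7 germline and oocyte markers, beside 31.3% of all genes. They lay above all Day 0 libraries for 3 of 5 neuron markers and for the intestinal protease gene *asp-1*, beside 36.4% of all genes. The muscle sum was 37.6 FPKM in *mir-60* mutants and 30.4 FPKM in *spe-9* controls at Day 7, against 629 to 855 FPKM at Day 0. The intestine sum was 5680 FPKM in *mir-60* mutants and 4915 FPKM in *spe-9* controls at Day 7, against 1004 to 1421 FPKM at Day 0, most of it from *asp-1*. The germline and oocyte sum was 762 FPKM in *mir-60* mutants and 813 FPKM in *spe-9* controls at Day 7, against 1407 to 1827 FPKM at Day 0. The neuron sum was 1540 FPKM in *mir-60* mutants and 1287 FPKM in *spe-9* controls at Day 7, against 895 to 945 FPKM at Day 0. Most of it came from *snb-1*, at 1458 FPKM in *mir-60* mutants and 1223 FPKM in *spe-9* controls at Day 7. The hypodermis sum was 11.9 FPKM in *mir-60* mutants and 11.3 FPKM in *spe-9* controls at Day 7, against 40.1 to 169 FPKM at Day 0, and the cuticle collagen genes *dpy-7* and *dpy-13* were listed at 0 in *mir-60* mutants and *bli-1* in *spe-9* controls. Only 3 of the 6 hypodermis markers passed the filter, and *bli-1* and *dpy-13* were at 1.08 FPKM or less at Day 0. As with *ama-1*, the listed zeros can be failed estimates. The part of these shifts in the changes of the 7 desaturases was not tested.

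The strains were also compared at Day 7, after paraquat. Each had 1 library at that day, so the ratios of *mir-60* mutants over *spe-9* controls have no replicate check and no test. The controls were then near their median survival time and the mutants were before theirs, so strain and stage of survival cannot be told apart. 3 of the 7 members, *fat-2*, *fat-6* and *fat-7*, were over 2-fold lower in *mir-60* mutants, beside 5.57% of 13745 genes, and 0 members were over 2-fold higher, beside 4.02% of genes. The log2 ratio was -1.34 for *fat-2* (2.53-fold lower), -1.23 for *fat-6* (2.34-fold lower) and -1.54 for *fat-7* (2.90-fold lower). For *fat-7* the counting intervals of the libraries did not overlap. The SD between Day 0 replicates, pooled over the strains, was 0.12 for *fat-2*, 0.06 for *fat-6* and 0.35 for *fat-7* on the same scale, and the spread at Day 7 is unknown.

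*fat-5* had a log2 ratio of -0.68, and all 3 delta-9 genes were thus lower in *mir-60* mutants. *fat-1* (0.32), *fat-4* (0.17) and *fat-3* (0.10) had positive ratios. Over the members the median was -0.68, and over all genes it was -0.01. *fat-1* stood at 84.4% of *fat-2* per length in *mir-60* mutants and at 26.9% in *spe-9* controls at Day 7, beside 46.6% to 56.6% in the Day 0 libraries. The intestine marker sum was slightly higher in *mir-60* mutants than in *spe-9* controls at this day, with the values given above. These ratios share their libraries with the comparison of Day 7 with Day 0.

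**Figure D4:**
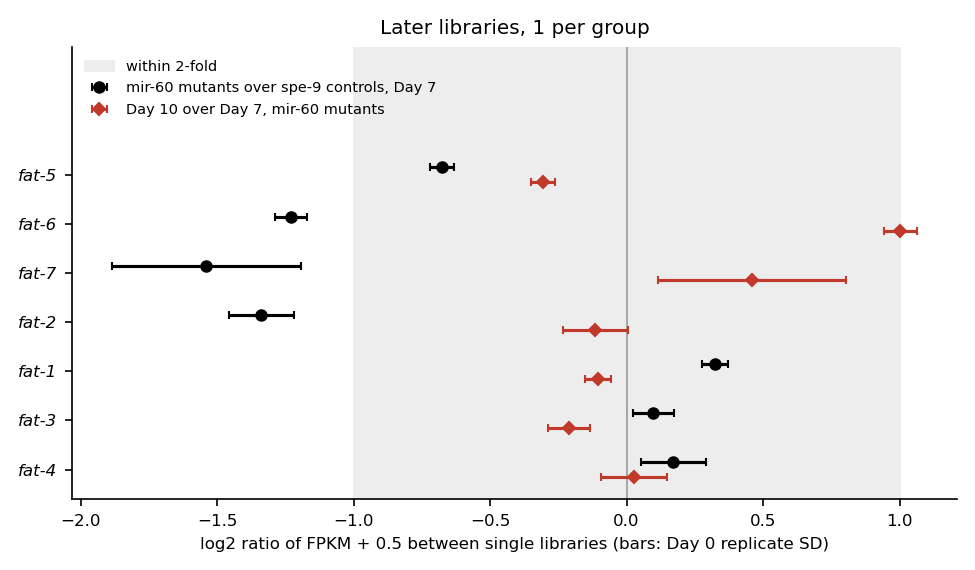
Log2 ratios of FPKM + 0.5 between single libraries for the 7 genes, *mir-60* mutants over *spe-9* controls at Day 7 (black) and Day 10 over Day 7 in *mir-60* mutants (red), with bars for the SD between Day 0 replicates and grey for the range within 2-fold. *fat-2*, *fat-6* and *fat-7* lie below the range in *mir-60* mutants at Day 7, and *fat-6* lies at its upper edge at Day 10.

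In *mir-60* mutants *fat-6* stood at 450 and 489 FPKM at Day 0, 965 FPKM at Day 7 and 1933 FPKM at Day 10. The Day 10 value lay close to the 2261 FPKM of *spe-9* controls at Day 7, 1.17-fold below it. Both of these groups were collected near the median survival time of their strain, and the part of this was not tested. With a log2 ratio of 1.003 between Day 10 and Day 7, *fat-6* was the 1 member past 2-fold, beside 4.53% of genes higher and 5.35% lower, and it lay on the limit itself: per length the ratio was 0.99. The median ratio of all genes was -0.20, and relative to it *fat-6* was at 1.20.

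The other members were within 2-fold between these days. *fat-7* stood at 0.699 FPKM at Day 7 and 1.15 FPKM at Day 10, the Day 10 value from 50 reads with a counting interval of 0.852 to 1.51 FPKM, which overlaps that of Day 7. *fat-5* stood at 10.7 FPKM at Day 7 and 8.52 FPKM at Day 10. *fat-2* stood at 2328 FPKM at Day 7 and 2151 FPKM at Day 10, and so was 2.74-fold lower at Day 10 than in *spe-9* controls at Day 7. *fat-1* was at 891, *fat-3* at 589 and *fat-4* at 1710 FPKM at Day 10. Per length, the order at Day 10 was *fat-6* (1697), *fat-2* (1064), *fat-1* (891), *fat-4* (350), *fat-3* (306), *fat-5* (8.52) and *fat-7* (1.15), whereas *fat-2* was the highest member in the 6 other libraries. The 3 delta-9 genes made up 39.5% of the length-weighted FPKM of all 7 members at Day 10, beside 23.5% in *mir-60* mutants and 32.0% in *spe-9* controls at Day 7 and 17.8% to 21.7% at Day 0.

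The genes that feed the desaturases with electrons and substrates, and those that regulate them, were read from lists. Their counts at Day 7 stand beside 33.2% of all genes called higher and 27.5% called lower, 60.6% in all, and a median log2 change of 0.06 over all genes. Of 3 electron donor genes, 2 rose at Day 7 and 0 fell. The cytochrome b5 gene *cytb-5.1* had 669 FPKM in *mir-60* mutants and 577 FPKM in *spe-9* controls at Day 7, against 169 to 207 FPKM at Day 0 (3.22-fold, limma adjusted p = 0.000391). The cytochrome b5 gene *cytb-5.2* had 1109 FPKM in *mir-60* mutants and 1339 FPKM in *spe-9* controls at Day 7, against 300 to 357 FPKM at Day 0 (3.74-fold, limma adjusted p = 0.000444), and stood at 1737 FPKM at Day 10. The remaining gene of the list, *hpo-19*, a predicted cytochrome b5 reductase gene named here after its values were seen, had a log2 difference of 0.02 and was not called.

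Elongases add carbon units to the acyl chains before and between the desaturation steps. Of 8 elongase genes tested, 2 rose and 5 fell at Day 7, with a median log2 change of -0.76, beside 33.2% of all genes higher, 27.5% lower and a median of 0.06. The largest fitted changes were those of *elo-8* (2.16), *elo-2*, the palmitic acid elongase (-1.87), *elo-5* (-1.73) and *elo-6* (-1.43), the last pair acting on branched-chain fatty acids. The other 3 enzymes of the elongation cycle all fell, *let-767*, a ketoacyl reductase, by 0.76 on the log2 scale. Of 5 genes of fatty acid synthesis 3 were called lower and 0 higher. They included *pod-2*, acetyl-CoA carboxylase, which fell by 0.67 on the log2 scale, and *mlcd-1*, malonyl-CoA decarboxylase, which breaks down the product of *pod-2*, by 0.50. The third was the ATP citrate lyase gene *acly-1*, listed at 0 in all 3 later libraries and at 6.98 FPKM or less at Day 0. Like the 0 of *ama-1*, these can be failed estimates, and its call is not read as a change.

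A list of 10 genes held regulators of desaturase expression or membrane unsaturation and partners of such regulators. Of these, 2 rose and 5 fell at Day 7, so that 7 of 10 were called, near the 60.6% of all genes. *nhr-49*, a nuclear receptor that promotes *fat-5*, *fat-6* and *fat-7* expression, rose by 0.35 on the log2 scale, and *daf-16*, the FOXO factor of insulin signalling, rose by 0.37. *nhr-80*, a nuclear receptor that also promotes delta-9 desaturase expression, had 4.53 FPKM in *mir-60* mutants and 3.60 FPKM in *spe-9* controls at Day 7, against 9.16 to 10.6 FPKM at Day 0, and fell by 1.20. *nhr-66*, a receptor that can pair with NHR-49, fell by 0.95, the Mediator subunit gene *mdt-15* by 0.79, *nhr-13*, another partner of NHR-49, by 0.57 and *iglr-2*, which acts with *paqr-2* in membrane fluidity, by 0.37. *skn-1* (0.19), *sbp-1*, the worm SREBP (0.17), and *paqr-2* (-0.01) were not called.

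All 5 genes of fatty acid oxidation linked to NHR-49 were called at Day 7, 2 higher and 3 lower, beside 60.6% of all genes. The acyl-CoA synthetase gene *acs-2* rose by 2.09 on the log2 scale, as 1 other gene did to a lesser degree, while *acdh-1*, an acyl-CoA dehydrogenase gene, fell by 7.45, *cpt-5* by 2.06 and *hacd-1* by 1.79. *acdh-1* had 2.43 FPKM in *mir-60* mutants and 4.76 FPKM in *spe-9* controls at Day 7, against 627 to 769 FPKM at Day 0. In none of these lists was a gene called between the strains at Day 0.

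**Figure D5:**
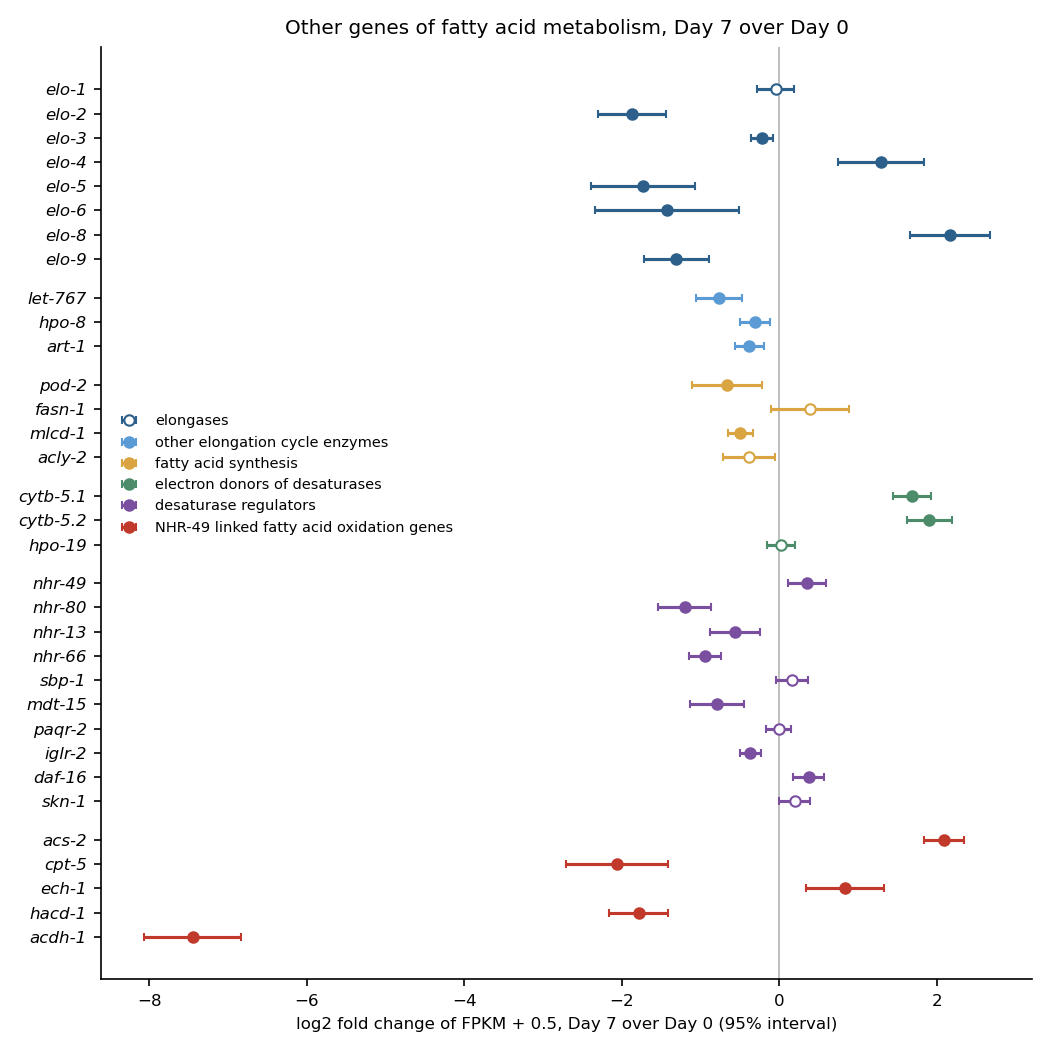
Fitted log2 change of FPKM + 0.5 at Day 7 over Day 0 (limma, bars for the unadjusted 95% interval) for the genes of 6 lists of fatty acid metabolism, coloured by list, with filled points for an adjusted p under 0.05 and *acly-1*, listed at 0 later, left out. Both cytochrome b5 genes lie to the right, at 1.69 and 1.90, and 5 of 8 elongases are filled to the left of 0.

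Over the 7 libraries *fat-7* had the widest range of the members, 7.27 on the log2 scale. Among 4235 genes compared, its profile was most like those of *K12H4.7* (Pearson r = 0.999), *clec-50* (0.996), *grd-10* (0.996), *asp-13* (0.995) and *let-767* (0.994). That of *fat-6* was most like *Y40B10A.9* (0.993), *F08H9.4* (0.989), *stl-1* (0.989), *aip-1* (0.988) and *F11C1.1* (0.984). These values are across 7 libraries that share 3 collection days, and they are given as a description. Such an r does not measure the size of a change: *let-767* stood at 260 to 332 FPKM at Day 0 and still at 160 to 182 FPKM later. *K12H4.7* had 235 and 194 FPKM in *mir-60* mutants, against 120 and 98.0 FPKM in *spe-9* controls at Day 0, and 5.86 FPKM or less in the later libraries. *Y40B10A.9* had 23.3 FPKM in *mir-60* mutants and 46.4 FPKM in *spe-9* controls at Day 7, and 40.7 FPKM in *mir-60* mutants at Day 10, with 8.85 to 11.1 FPKM at Day 0.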

How the data were processed

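Polyadenylated RNA of whole animals was sequenced by the authors in 2 runs per library (14 runs, 7 libraries; TruSeq Stranded mRNA kit), and the reads were mapped by TopHat 2.1.0, running on Bowtie 2.1.0, against build WS220. The deposited values are FPKM per RefSeq transcript, computed by the authors with Cufflinks 2.2.1 from the merged runs. The lengths of transcripts come with the deposited matrix. The study's count test was not run, because the deposited values are not counts. Gene counts of all samples are listed by the study itself, with the results of its own test between the strains at Day 0. Neither was used here, and the Day 0 calls rest on limma over FPKM alone.

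FPKM were summed per gene symbol, and log2(FPKM + 0.5) of genes with a mean of at least 1 FPKM was fitted with limma 3.58.1 (R 4.3.3; trend, Benjamini-Hochberg over all genes tested, two-sided). Fold changes are on this scale, which understates those of low genes. Day 0 strains were compared over 4 libraries, and Day 7 with Day 0 over 6 libraries with strain as a term. At the later days single libraries were described by their ratio, beside the share of all genes past 2-fold. FPKM do not give total depth, and the read totals that the study lists for each library were not used. Reads were recovered from the value steps only for *fat-5* and *fat-7*.

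All 7 members were named. Of each list, genes past the threshold could be named, at most 4 per list and test with the largest change first, and regulators and reference genes in full. Genes of like pattern were the 5 with the highest r among genes with a mean of at least 10 FPKM, an entry of at least 200 bases and a log2 range of at least 1, for *fat-6* and the member of widest range. The members, lists and tests were chosen with earlier results of these data known.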

Additional observations from a re-analysis of the deposited data

Results flagged for a closer look

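The strain difference of *fat-7* pointed in opposite directions at the 2 days. Its log2 ratio of *mir-60* mutants over *spe-9* controls was -1.54 at Day 7 and 1.30 at Day 0, where both mutant libraries lay above both control libraries, a difference of -2.84 between the days. For *fat-1* the log2 ratio was 0.32 at Day 7 and -0.27 at Day 0, where both mutant libraries lay below both control libraries, a difference of 0.59. Neither difference between the days was tested, and Day 7 had 1 library of each strain. The Day 7 ratio of *fat-7* rests on 35 reads in *mir-60* mutants and 134 reads in *spe-9* controls. Over 8 alternatives of processing it ran from -1.95 to -1.23. The part in it of any reads split between *fat-6* and *fat-7* was not tested.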

How the results depend on the processing

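The calls of *fat-3*, *fat-5*, *fat-6* and *fat-7* at Day 7 over Day 0 were made in all 20 alternatives (pseudocounts, filters, scalings, entry choices, the strain term, Day 10 added and each library left out), and the number of members called was 4 to 5 when leaving out each library. The fifth was *fat-1* in 5 alternatives, *fat-2* without the Day 7 library of *mir-60* mutants, or *fat-4* by its longest entry. Centring on *ama-1*, *cdc-42* and *pmp-3* was not run at Day 7, because *ama-1* was listed at 0 in 1 library. Instead *cdc-42* and *pmp-3* were used, and this and the length-weighted and longest-entry values were chosen after seeing the data. At Day 0, 0 members were called when leaving out each library (0 to 0). With the replicate number as a block 1 member, *fat-7*, was called (adjusted p = 0.0304), beside 2.71% of all genes. When this block was combined with a limit to genes that reach 200 bases, 3 members (*fat-1*, *fat-5* and *fat-7*) were called. The share of all genes called under this combined setting was not computed, so the count has no background to stand beside. The labels do not say what the numbers stand for. The study calls the replicates independent trials of sample preparation and sets the strain ratio of one beside that of the other. Its qRT-PCR methods compare samples by a paired t-test over 3 independent trials. The qRT-PCR check of the sequencing included the 2 sequenced replicates. This may mean that a number marks a trial shared by the strains. There are only 2 such pairs, and same-numbered libraries correlated at 0.076 in their deviations over all genes and at 0.347 over genes of at least 200 bases, so the pairing remains uncertain. Leaving out each Day 0 library turned 4 small strain differences round, with log2 values from -0.19 to 0.012 for *fat-2*, -0.15 to 0.00044 for *fat-3*, -0.17 to 0.00060 for *fat-4* and -0.10 to 0.019 for *fat-6*, none of them called. The number of members past 2-fold between Day 10 and Day 7 was 0 with quantile normalization, the highest entry, the length-weighted sum or the longest entry. It was 2 with *cdc-42* and *pmp-3* centring, under which the ratios of *fat-1*, *fat-2*, *fat-3* and *fat-5* turned positive. Those of *fat-1* and *fat-2* also turned positive with median centring. The small positive ratio of *fat-4* turned negative with quantile normalization, the length-weighted sum or the longest entry. The Day 7 gain in the *fat-6* share was 27.7 percentage points with the highest entry per gene and 14.7 to 21.1 when leaving out each library. The cause of these shifts was not tested. The 3 members past 2-fold between strains at Day 7 stayed 3 in all 8 alternatives.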
